A study of Mus musculus with 18 samples.

Results

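The checkpoint and costimulatory ligands examined here were 9 genes chosen by symbol, Cd274, Pdcd1lg2, Cd80, Cd86, Icosl, Nectin2, Pvr, Lgals9 and Vsir. They were 9 of the 13759 genes listed for macrophages and 9 of the 54309 listed for lymphocytes, and every one was found in both tables through its versioned Ensembl identifier. Macrophages were sorted from liver metastases of female C57BL/6J mice, 8 to 10 weeks old, at day 20 after injection of MC38, a mouse colon adenocarcinoma cell line, into the spleen. The gate was lineage-negative, CD45+, CD11b+ and either F4/80high (3 libraries) or F4/80low (3 libraries), F4/80 being the surface protein encoded by Adgre1. The same kind of mice gave 12 lymphocyte libraries, all lineage-negative, CD45+ and NKp46+, with 3 libraries each of CD49a-CD49b+ NK cells from metastasis-free liver (MFL), CD49a+CD49b- ILC1 from MFL, CD49a-CD49b+ NK cells from liver metastases (LM) and CD49a+CD49b+ NK cells from LM. Every group came from mice injected with tumor cells, and no drug or gene deletion was labelled for any of them. The titles of the CD49a+ NK libraries of LM called them ILC1, and they were taken here by their CD49a+CD49b+ gate and cell type label. The lymphocyte libraries were pools of 6 to 8 samples, and pooling of the macrophages was not given in the sources used here. Nothing in the labels ties the 3 macrophage libraries of a group to separate cultures or animals, so p-values measured the spread between these libraries, which may be technical.

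T cells and NK cells read a second signal from myeloid cells besides antigen or activating ligands. Ligands of the B7 family either license the response, as CD80 and CD86 do through CD28 and ICOS ligand does through ICOS, or restrain it, as PD-L1 and PD-L2 do through PD-1 and CD80 and CD86 do through CTLA-4. Nectin-2 and PVR are shared by the activating receptor CD226 and the inhibitory receptor TIGIT, PVR also binds CD96, galectin-9 binds TIM-3, and VISTA restrains T cells from the myeloid side. Interferon-gamma and Toll-like receptor signaling through NF-kB are known inducers of several of these genes in macrophages and dendritic cells.

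The gene order around the members was read from the GENCODE annotation of GRCm39. Cd274 (ENSMUSG00000016496.8, chr19:29344529-29365495, plus strand) and Pdcd1lg2 (chr19:29388319-29448882, plus strand) lay 22823 bases apart with 0 protein-coding genes between them. Cd80 (chr16:38275923-38316697) and Cd86 (chr16:36424044-36486443) were on the same chromosome with 24 protein-coding genes between them, and Nectin2 (chr7:19450569-19484408) and Pvr (chr7:19637503-19655085) with 6. Icosl (chr10:77905136-77919747) and Vsir (chr10:60182630-60208463) had 160 protein-coding genes between them, and Lgals9 (chr11:78853800-78875798) was the only member on its chromosome. Each of the 9 was annotated as protein-coding, and each value below is a count over the whole gene.

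The 250 bases before the start of Pdcd1lg2 and of Vsir are shown because, of the members, these genes lay at opposite ends of the macrophage comparison and their windows held 0 bases of annotated exons. RefSeq promoter entries (table build GRCm38.p6) were found for 7 of the 9 members, Cd86 and Pvr being the members with none, and both windows printed here matched GRCm39 exactly once, at chr19:29388069-29388318 for Pdcd1lg2 and at chr10:60182380-60182629 for Vsir, on the plus strand. GC content was 48.4% for Pdcd1lg2 and 60.4% for Vsir. Capitals mark matches, on either strand, to TTCNNNGAA (the interferon-gamma activated site), GAAA and again GAAA with 2 free bases between (the core of the interferon-stimulated response element) or GGGA and CC with 4 free bases between (a kappa-B site, bound by NF-kB).
Pdcd1lg2: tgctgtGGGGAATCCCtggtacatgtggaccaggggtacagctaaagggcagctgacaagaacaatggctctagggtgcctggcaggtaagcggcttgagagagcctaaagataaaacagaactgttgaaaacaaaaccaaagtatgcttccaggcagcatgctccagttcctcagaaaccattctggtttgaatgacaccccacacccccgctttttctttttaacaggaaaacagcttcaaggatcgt
Vsir: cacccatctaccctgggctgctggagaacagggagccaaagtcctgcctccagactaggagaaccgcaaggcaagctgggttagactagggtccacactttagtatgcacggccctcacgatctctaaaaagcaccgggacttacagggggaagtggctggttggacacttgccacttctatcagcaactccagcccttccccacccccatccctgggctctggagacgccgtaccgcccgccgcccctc
The Pdcd1lg2 window held 1 kappa-B match and the Vsir window 0 matches to the 3 patterns. Matches did not follow the direction of the comparison: of the 7 windows, those of Cd80, Icosl, Nectin2 and Lgals9 held a kappa-B match as well, Lgals9 also 1 match to the response element core, and Cd274 none. The Cd274 window, however, lay past the annotated start with all 250 bases in annotated exons, so it does not show the sequence before that start. The windows of Cd80, Icosl, Nectin2 and Lgals9 held 121, 66, 95 and 48 bases of annotated exons. Over 32851 promoter windows of this length, 17.6% held the kappa-B pattern, 7.02% the interferon-gamma activated site and 2.98% the interferon-stimulated response element core. A match describes letters, not binding, and the lack of a match says only that these letters were not in this window.

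Library totals ran from 21278959 to 32267015 estimated counts for macrophages and from 8795721 to 14386834 for lymphocytes. Levels are given as CPM, that is counts scaled to an equal library total with edgeR's TMM factors. Macrophage libraries of a group were close to each other, with Pearson's r between 0.975 and 0.983 across 10080 genes. The LM lymphocyte libraries stood apart from one another, with r between 0.59 and 0.732 across 9785 genes, against 0.823 to 0.964 for the MFL libraries, so calls on them are given below with the effect of leaving out 1 library. The Adgre1 transcript, which encodes the protein used for the gate, was at 958 ± 187 CPM (SD, n = 3) in F4/80high and 146 ± 19.0 in F4/80low cells.

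The macrophage comparison asked which of the ligands differ between the gates by which the study divided the macrophages of LM, and 6 of the 9 ligands were lower in F4/80high than in F4/80low cells: Pdcd1lg2, Cd80, Cd274, Cd86, Pvr and Icosl. None of the 9 was higher, and Lgals9, Vsir and Nectin2 did not pass the test. A call was an adjusted p under 0.1 in edgeR's quasi-likelihood test, with p-values adjusted by Benjamini-Hochberg over all 13759 genes. By this rule 27.1% of all genes were lower and 27.8% higher in F4/80high cells. The median log2 fold change was -1.02 over the 9 members and 0.01 over all genes. In 7 of the 9 the 2 groups did not overlap, against 58.4% of all genes. In bulk libraries, fewer cells of a type and less RNA per cell cannot be told apart, and this holds for every value below.

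**Figure D1:**
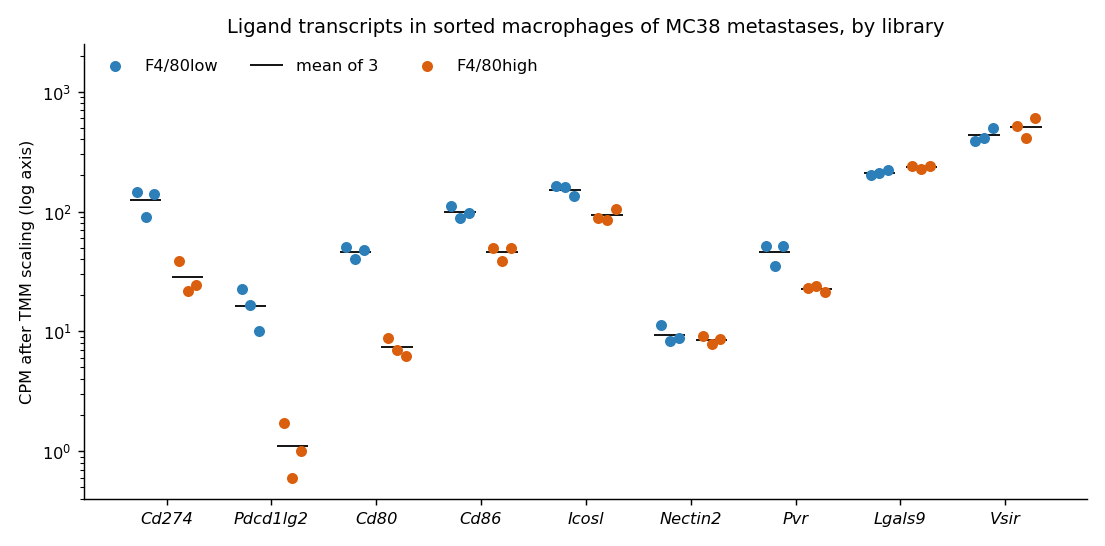
Level of each ligand in the 6 macrophage libraries, in CPM on a log axis, with 1 point per library and a bar at each group's mean. Pdcd1lg2, Cd80 and Cd274 show the widest gaps between F4/80high and F4/80low, whereas the points of Nectin2 and Vsir overlap.

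PD-L1, encoded by Cd274, is the broadly inducible ligand of PD-1. Cd274 was at 38.9, 21.7 and 24.4 CPM in F4/80high libraries 1 to 3 and at 147, 89.3 and 139 CPM in F4/80low libraries 1 to 3. The lowest F4/80low library was above the highest F4/80high library. The mean was 4.41-fold lower in F4/80high cells (28.4 ± 9.27 against 125 ± 31.2 CPM, SD, n = 3), with a log2 fold change of -2.14 (SE 0.26, 95% confidence interval -2.73 to -1.56) and an adjusted p of 0.0002664 in edgeR's quasi-likelihood test. By flow cytometry the paper reports the opposite direction for PD-L1 protein, higher on macrophages of the high gate than of the lower gate. The lower Cd274 level therefore concerns RNA only, and why RNA and protein differed was not tested.

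PD-L2, encoded by Pdcd1lg2, is the PD-1 ligand found mainly on dendritic cells and macrophages. Pdcd1lg2 was at 1.71, 0.60 and 1.01 CPM in the F4/80high libraries and at 22.4, 16.7 and 10.1 CPM in the F4/80low libraries. It was the widest gap among the 9 genes, and the F4/80high values rested on 17 to 38 counts per library against 234 to 681. The mean was 14.8-fold lower in F4/80high cells, with a log2 fold change of -3.92 (SE 0.41, 95% confidence interval -4.85 to -2.98) and an adjusted p of 0.0001298 in the same test.

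The balance of the neighbouring PD-1 ligands was compared within each library and per kilobase of exon, so that library scaling drops out and gene length is allowed for. Cd274 exceeded Pdcd1lg2 by 12.6, 19.6 and 13.3 times in the F4/80high libraries and by 3.66, 2.99 and 7.67 times in the F4/80low libraries. The 2 sets of ratios did not overlap, and their mean log2 difference was 1.76 (exact 2-sided permutation test, p = 0.1, the smallest that 3 against 3 libraries allow). PD-L1 transcripts were thus the more abundant of the pair in all 6 libraries.

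CD80 and CD86 bind the same receptors, CD28 and CTLA-4, with CD80 the stronger binder. Cd80 was at 8.87, 6.94 and 6.19 CPM in the F4/80high libraries and at 50.9, 39.99 and 47.9 CPM in the F4/80low libraries. The groups were far apart, and the log2 fold change was -2.66 (SE 0.16, 95% confidence interval -3.02 to -2.31, adjusted p = 7.19e-06 by edgeR's quasi-likelihood test), a mean 6.31-fold lower.

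Cd86 was at 49.6, 38.5 and 49.5 CPM in the F4/80high libraries and at 112, 88.8 and 97.1 CPM in the F4/80low libraries. The groups did not overlap here either, with a log2 fold change of -1.11 (SE 0.13, 95% confidence interval -1.41 to -0.82) and an adjusted p of 0.0002262 in that test. Per kilobase, Cd86 exceeded Cd80 by 5.99, 5.95 and 8.56 times in the F4/80high libraries and by 2.36, 2.38 and 2.18 times in the F4/80low libraries. The ratio was higher in every F4/80high library, by 1.55 in the mean log2 ratio (exact 2-sided permutation test, p = 0.1).

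ICOS ligand, encoded by Icosl, engages ICOS on activated T cells and on some innate lymphocytes. Icosl was at 88.8, 85.0 and 104 CPM in the F4/80high libraries and at 164, 159 and 134 CPM in the F4/80low libraries. It was the smallest of the 6 called differences, at -0.71 on the log2 scale (SE 0.11, adjusted p = 0.001182 by edgeR's quasi-likelihood test).

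Pvr and Nectin2, whose proteins share the receptors CD226 and TIGIT, differed in their results. Pvr was at 23.1, 23.8 and 21.1 CPM in the F4/80high libraries and at 51.4, 35.3 and 51.7 CPM in the F4/80low libraries, with no overlap. Its log2 fold change was -1.02 (SE 0.15) with an adjusted p of 0.0008085 by edgeR's quasi-likelihood test.

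Nectin2 was at 9.19, 7.86 and 8.59 CPM in the F4/80high libraries and at 11.2, 8.26 and 8.73 CPM in the F4/80low libraries. These ranges overlapped, and the log2 difference of -0.14 had a 95% confidence interval of -0.51 to 0.23 (adjusted p = 0.5057 in that test).

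Galectin-9, encoded by Lgals9, is a secreted lectin, and VISTA, encoded by Vsir, is a B7 family receptor and ligand of myeloid cells. Lgals9 was at 242, 225 and 239 CPM in the F4/80high libraries and at 201, 208 and 224 CPM in the F4/80low libraries. Its groups did not overlap but lay close together, with a log2 difference of 0.16 (95% confidence interval -0.03 to 0.35, adjusted p = 0.1441 by edgeR's quasi-likelihood test).

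Lgals9 was called higher under other processing, at 0.18 with voom quality weights (adjusted p = 0.06579) and at 0.25 with upper quartile scaling (adjusted p = 0.02843). Vsir was at 521, 412 and 600 CPM in the F4/80high libraries and at 386, 413 and 501 CPM in the F4/80low libraries. The Vsir ranges overlapped, and its log2 difference was 0.24 (95% confidence interval -0.11 to 0.59, adjusted p = 0.2359 by edgeR's quasi-likelihood test). Without F4/80high replicate 2 it rose to 0.37 and was called (adjusted p = 0.06041).

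**Figure D2:**
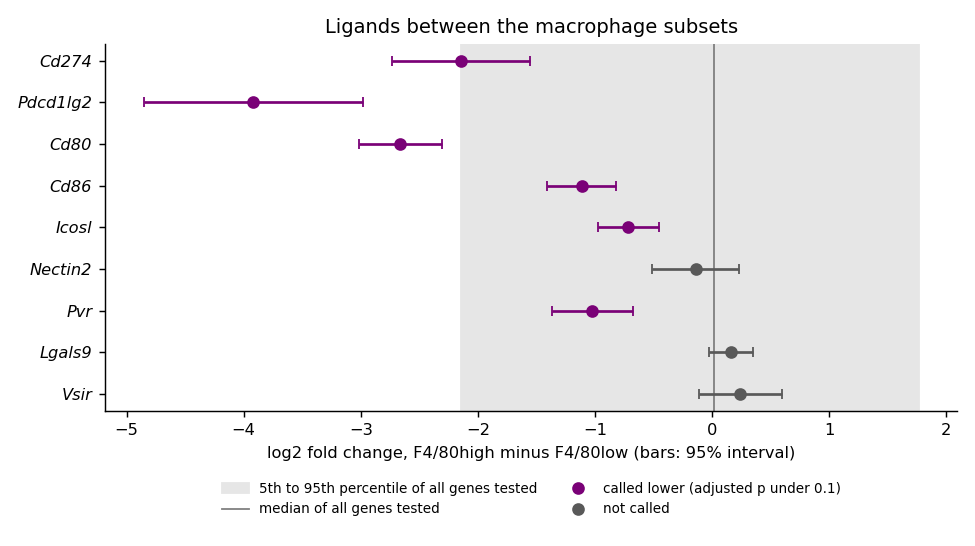
Log2 fold change of each ligand, F4/80high minus F4/80low, with its 95% confidence interval as a line, over the shaded range between the 5th and 95th percentiles of all 13759 genes, with a vertical line at their median. The intervals of Nectin2, Lgals9 and Vsir cross 0, and those of the other 6 lie below it.

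Compared per kilobase of exon, the members fell in a similar order in both gates at the top and in another order below it. In F4/80high cells Lgals9 (104 CPM per kb) and Vsir (102) led, followed by Icosl (20.1), Cd86 (11.9), Cd274 (6.95), Pvr (3.64), Nectin2 (2.12), Cd80 (1.78) and Pdcd1lg2 (0.485). In that order only the neighbours Lgals9 and Vsir, and Nectin2 and Cd80, had overlapping ranges over the 3 libraries.

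In F4/80low cells the order was Lgals9 (92.9 CPM per kb), Vsir (86.3), Icosl (32.9), Cd274 (30.6), Cd86 (25.8), Cd80 (11.2), Pvr (7.40), Pdcd1lg2 (7.18) and Nectin2 (2.34). Overlapping neighbours there were Lgals9 and Vsir, Icosl and Cd274, Cd274 and Cd86, and Pvr and Pdcd1lg2. With the longest transcript as the length, 12 of the 18 places in both orders were kept, Cd274 trading places with Pvr in F4/80high cells, and Cd274 with Cd86 and Cd80 with Pvr in F4/80low cells. Lgals9 and Vsir, the most abundant ligands per length, were thus among the 3 that did not pass the test.

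For each called ligand, the 3 genes with the most similar pattern were found by the root mean square difference of centred log2 CPM over the 6 libraries, among the 10080 genes whose mean reached 5 CPM. For Cd274 they were Mxd1 (0.0979), Pim1 (0.112) and Dusp2 (0.159). Irf4 (0.17), Tgtp1 (0.223) and Klrk1 (0.241) came nearest to Pdcd1lg2. Both sets are described by these distances alone, with no test.

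Crip1 (0.0778), Pi16 (0.108) and Arap2 (0.154) came nearest to Cd80. For Cd86 the set was Gm45220 (0.0593), Cst3 (0.0675) and H2-T23 (0.0678). The set for Icosl was Etv6 (0.0501), Arhgap45 (0.0502) and Zfp182 (0.0527), and for Pvr it was Osgin2 (0.0593), Bbln (0.0773) and Neat1 (0.108). H2-T23, in the set of Cd86, encodes Qa-1, the nonclassical MHC molecule that engages NKG2A.

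Other ligands of the same families were counted in the same fit. Of 5 further genes, 4 of the B7 and butyrophilin families and their relatives and Tnfrsf14, 3 were higher, 1 lower and 1 not called in F4/80high cells, and their median was 1.56 on the log2 scale. Cd276, which encodes the B7 family protein B7-H3, rose from 15.9 ± 3.45 CPM in F4/80low to 46.7 ± 5.22 CPM in F4/80high cells (log2 fold change 1.56). Cd276 thus differed in the opposite direction from the 6 called members. Vsig10 was lower (-1.24), and Tnfrsf14, which encodes the BTLA ligand HVEM of the TNF receptor superfamily, was not called (-0.26).

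Of 7 nectin, nectin-like and related genes 3 were higher, 3 lower and 1 not called, with a median of -0.33. Nectin1 was at 7.93 ± 1.37 CPM in F4/80high and 126 ± 15.8 CPM in F4/80low cells (-3.99), and Cd200, the ligand of the myeloid inhibitory receptor CD200R, was also lower (-4.99). Cadm1, which encodes the ligand of the NK and T cell receptor CRTAM, went the other way, at 53.3 ± 8.39 against 7.45 ± 1.277 CPM (2.83), as did Nectin4 (0.78). The list therefore held large differences of both signs.

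Of 6 TNF superfamily ligands and CD40, 5 were lower, 0 higher and 1 not called, with a median of -1.09. Cd40, the receptor through which helper T cells activate myeloid cells, was at 34.3 ± 2.61 against 71.3 ± 12 CPM (-1.06). Tnfsf9, encoding the 4-1BB ligand, was lower (-1.12), as were Tnfsf8, encoding the CD30 ligand (-1.39), and Tnfsf14, encoding LIGHT (-0.80). All 4 named here were thus lower in F4/80high cells, as the 6 called members were.

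Of 10 other inhibitory ligands 2 were higher, 7 lower and 1 not called, with a median of -0.86. The lower genes were Cd24a (-4.91), Ceacam1 (-2.80), Lgals3 (-1.71), H2-T23 (-1.20), Cd47 (-0.89), Cd52 (-0.84) and Cd48 (-0.29). The higher genes were Hmgb1 (0.60) and Sirpa (0.37), the latter encoding the receptor that reads CD47, and Fgl2 (-0.27) was not called.

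**Figure D3:**
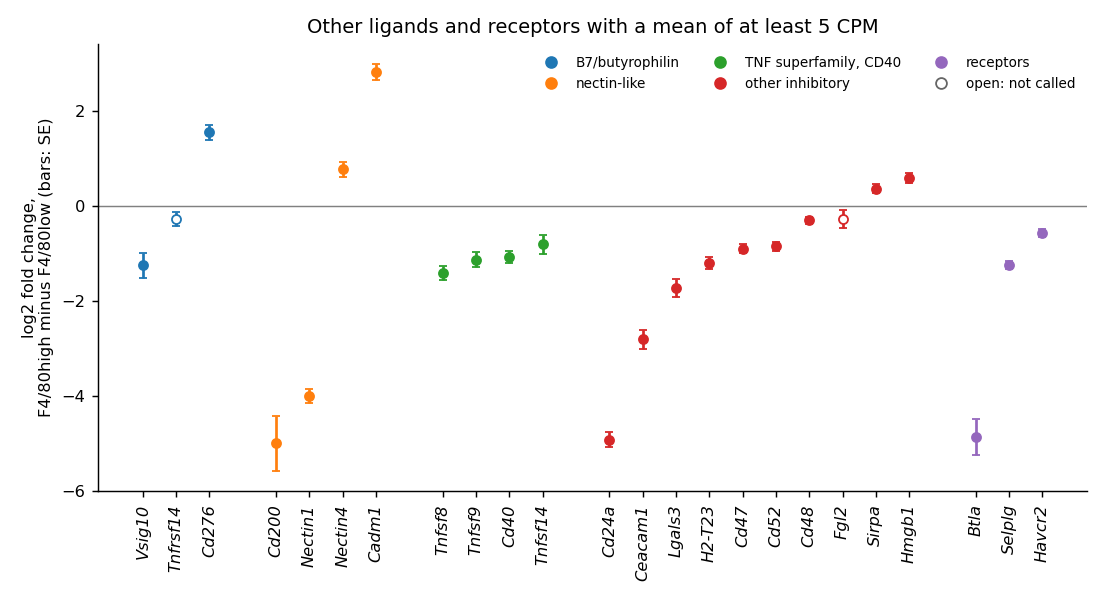
Log2 fold change, F4/80high minus F4/80low, of the other ligands and receptors with a mean of 5 CPM or more, 1 point per gene with bars for the SE, colored by list and open where not called. Cd276 and Cadm1 lie above 0 and Nectin1, Cd200 and Cd24a far below it.

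The receptors of the ligands were mostly lower in F4/80high cells, 8 of 11, with 1 higher, 2 not called and a median of -1.57, and 5 were lower when only genes with at least 1 CPM in 3 libraries were tested. Among receptors at or above a mean of 5 CPM, Btla showed the widest difference (-4.86), followed by Selplg, encoding a VISTA receptor (-1.23), and Havcr2, encoding TIM-3 (-0.56). The rest, Pdcd1, Cd28, Ctla4, Icos, Tigit, Cd226, Cd96 and Pvrig, stayed at or below 5.09 CPM in every macrophage library. Much of the count of lower receptors thus rests on genes of low level, and the part of T and NK cell transcripts in them was not tested. Havcr2 was at 86.9 ± 4.28 against 128 ± 6.77 CPM, so transcripts of the galectin-9 receptor were measured in both macrophage gates.

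The signaling pathways that are known to induce several of these ligands were described from lists of their genes. Of 26 interferon-gamma response genes 20 were lower in F4/80high cells, 1 higher and 5 not called, with a median of -0.80. The most abundant were the invariant chain Cd74 (-2.54) and the MHC class II genes H2-Ab1 (-2.87) and H2-Eb1 (-2.71), and the widest difference was that of Ciita (-3.35), the transactivator of class II genes. Iigp1, an interferon-inducible GTPase, was the gene that was higher (1.38). Jak2, a kinase of the interferon-gamma receptor, and the transcription factor gene Irf1 were picked out after their values were seen, and were lower too, with log2 fold changes of -2.71 and -0.48. In the same list Cxcl9, Cxcl10, Gbp7 and Irf8 overlapped between the gates, also read after the values were seen. By flow cytometry the paper reports CXCL9 protein more in macrophages of the high gate than of the lower gate, mainly in those with class II MHC. The Cxcl9 and class II values here concern RNA only, and their relation to protein was not tested. Cxcl10 was at 193, 197 and 152 CPM in the F4/80high and at 172, 191 and 200 CPM in the F4/80low libraries.

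Of 16 NF-kB and Toll-like receptor response genes 14 were lower, 0 higher and 2 not called, with a median of -1.48. The most abundant were Il1b, encoding the cytokine interleukin-1 beta, at 148 ± 79.4 against 1409 ± 471 CPM (-3.25), Nfkb1 (-0.95) and the NF-kB inhibitor Nfkbia (-1.61). Il6 showed the widest difference (-4.60). Whether either pathway had a part in the levels of the members was not tested.

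Markers of other cell types moved with the comparison too. Of 14 macrophage markers 12 were higher in F4/80high cells and 0 lower (median 1.86), their sum running from 25292 to 34729 CPM against 8300 to 10543 CPM, with Apoe (2.00), C1qa (2.30) and C1qb (1.90) the most abundant. Of 10 classical monocyte markers 9 were lower and 1, F13a1, higher (median -3.23), the sums being 4116 to 5672 against 7217 to 10220 CPM. Most of the monocyte sum was Fn1 in both gates, at 3552, 3162 and 4443 CPM in the F4/80high libraries. Ccr2 was at 525, 439 and 426 CPM in the F4/80high and at 1358, 1361 and 1392 CPM in the F4/80low libraries. F13a1 was at 584, 411 and 755 CPM in the F4/80high and at 151, 173 and 264 CPM in the F4/80low libraries. Ly6c2 was at 10.2, 12.6 and 3.53 CPM in the F4/80high and at 119, 115 and 84.1 CPM in the F4/80low libraries. Macrophage markers were thus measured in both gates. Monocyte markers of the F4/80high gate ran from low (Ly6c2) to abundant (Fn1, Ccr2, F13a1), and the share of monocytes in either gate was not tested.

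Of 10 dendritic cell markers 9 were lower in F4/80high cells and 1 was not called (median -2.94), with sums of 219 to 299 against 938 to 1373 CPM. Most of that sum was Wdfy4 in both gates. It was at 211, 186 and 266 CPM in the F4/80high and at 686, 828 and 542 CPM in the F4/80low libraries. Of the 7 measured markers of mature dendritic cells all 7 were lower (median -5.12), with sums of 48.1 to 71.5 against 837 to 1700 CPM. The dendritic cell receptor gene Flt3 was at 2.09 ± 0.464 against 106 ± 30.7 CPM and the migration receptor gene Ccr7 at 3.27 ± 2.37 against 211 ± 97.4 CPM. F4/80low libraries thus carried dendritic cell markers beside the macrophage markers, and their part in the ligand values was not tested.

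Sums of the remaining lists were lower than those of macrophages and monocytes. They were 0.248 to 0.630 against 7.38 to 110 CPM for neutrophils (5 of 5 lower), 6.68 to 15.8 against 9.10 to 10.9 for Kupffer cells (3 higher and 1 lower of 5), 130 to 222 against 92.3 to 153 for B cells (2 higher of 6) and 6.41 to 14.9 against 7.52 to 21.5 for T cells (1 lower of 7). NK cell markers ran from 1.205 to 3.11 against 2.46 to 19.0 (4 lower of 5), hepatocyte markers from 1.65 to 9.81 against 1.82 to 4.88 (0 called of 3) and endothelial markers from 18.7 to 25.1 against 40.7 to 44.4 (2 higher and 3 lower of 5). The 2 measured epithelial markers, Cdh1 and Epcam, were both lower, with sums of 8.30 to 11.8 against 197 to 281 CPM. Most of that sum was Cdh1, at 247, 264 and 189 CPM in the F4/80low libraries, so it does not by itself show tumor cells. Lists were read over the markers the table held, 5 of 9 for neutrophils, 2 of 6 for epithelium, 3 of 6 for hepatocytes and 7 of 8 for mature dendritic cells, and a marker at 0 could not appear in a table whose lowest gene total was 37 counts. The part of these transcripts in the members' values was not tested.

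**Figure D4:**
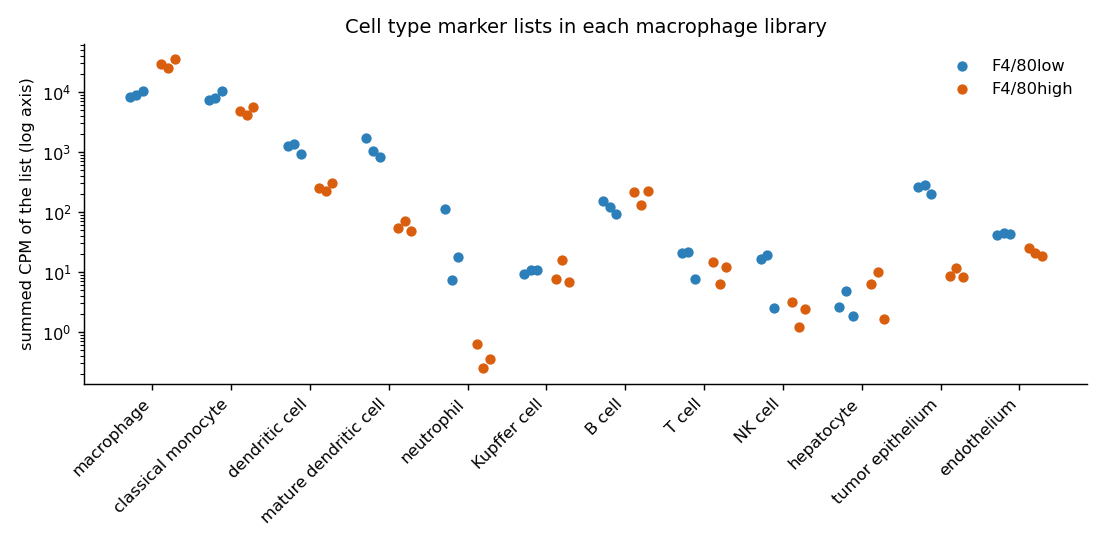
Summed CPM of each cell type marker list in the 6 macrophage libraries, on a log axis, with 1 point per library. Macrophage markers are higher in the F4/80high libraries, and dendritic cell, mature dendritic cell, neutrophil and epithelial markers are higher in the F4/80low libraries.

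The lymphocytes, which bear many of the receptors, were examined for the ligands too, within their own table only. Both tables differ in library kit, poly(A) selection for macrophages and total RNA for lymphocytes, so levels were not compared between them. LM were digested with Liberase and MFL was smashed and filtered, and therefore site and dissociation cannot be told apart between LM and MFL groups. Each comparison with MFL NK cells used the same 3 MFL NK libraries, so those comparisons share their controls.

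Of the 9 ligands 7 had enough counts to be tested. Cd80 had 0 to 25 counts per library and Nectin2 0 to 11, where 3 counts, the limit that a count of 0 allows, are worth 0.22 to 0.334 CPM. Cd86 had 0 counts in the 3 LM CD49a+ NK libraries, 0 to 7 in LM CD49a- NK, 0 to 22 in MFL NK and 9 to 41 in ILC1 libraries, and was called in none of the comparisons. Intervals and limits of this kind cover counting error only. Ranked per kilobase, Lgals9 led in MFL NK cells at 37.5 CPM per kb, before Vsir at 19.0 and Cd274 at 8.00, and in ILC1 Vsir led at 42.7 with a range that overlapped that of Lgals9 at 39.0.

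**Figure D5:**
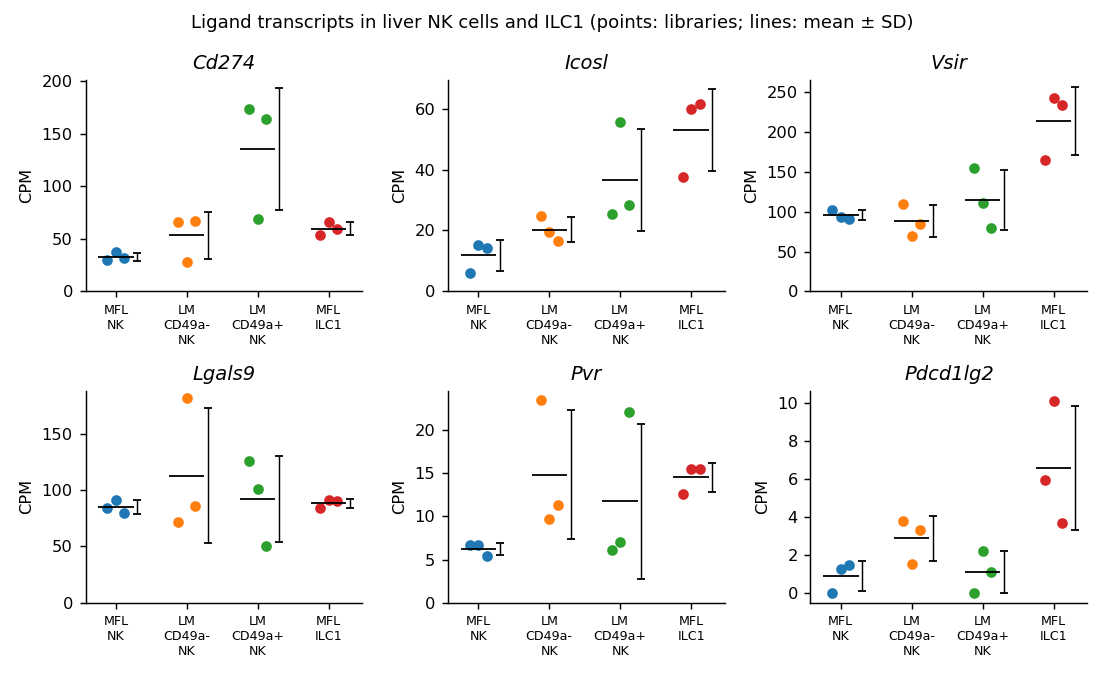
Level of 6 ligands in the 12 lymphocyte libraries, in CPM, with 1 point per library, a bar at each group's mean and a bracket for ± SD (n = 3). Cd274 is highest in the LM CD49a+ NK libraries and Icosl and Vsir are highest on average in ILC1, whereas Lgals9 overlaps in all groups.

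Cd274 was the ligand called in LM CD49a+ NK cells against MFL NK cells. It was at 173, 68.9 and 164 CPM in LM CD49a+ NK libraries 1 to 3 and at 29.4, 37.3 and 31.2 CPM in the MFL NK libraries. Each LM CD49a+ NK library was above each MFL NK library (20.1% of all genes did not overlap between these groups), with a log2 fold change of 2.05 (SE 0.40, adjusted p = 0.02619 by edgeR's quasi-likelihood test). In that comparison 0.427% of the 13594 genes tested were higher and 0.221% lower, and 1 of the 7 tested members was higher. The call was lost without LM CD49a+ NK replicate 1 (1.82, adjusted p = 0.1331) and without MFL NK replicate 1 (1.98, 0.171), 2 (2.15, 0.103) or 3 (2.02, 0.1551), the direction staying the same. Beside Cd274, LM CD49a+ NK libraries held 23.8 to 51.5 against 0.295 to 2.53 CPM of epithelial markers (Cdh1 called higher, 1 of 2 tested), 220 to 281 against 86.5 to 144 CPM of endothelial markers (0 of 2 called), 24.2 to 50.9 against 5.82 to 17.2 CPM of mature dendritic cell markers (0 of 3 called) and 0 to 13.1 against 18.4 to 108 CPM of hepatocyte markers (0 of 5 called). Their part in Cd274 was not tested.

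In the CD49a- NK cells of LM, Cd274 was at 65.7, 27.5 and 66.7 CPM, and in ILC1 at 53.5, 65.9 and 58.9 CPM. Against LM CD49a- NK cells the LM CD49a+ NK libraries did not overlap, and the log2 difference was 1.34 (95% confidence interval 0.52 to 2.16), which was not called (adjusted p = 0.2801 by edgeR's quasi-likelihood test) except by DESeq2 (1.33, adjusted p = 0.06797). In this comparison 0 of 7 members were called, beside 0.0662% of all genes higher and 0.0736% lower, that is 19 genes, while 1579 had an unadjusted p under 0.05. Of all genes, 9.82% did not overlap between these groups. By flow cytometry the paper reports higher surface PD-L1 protein on LM CD49a+ than on LM CD49a- NK cells, so the lack of a call here concerns RNA only. Cd274 was not called in LM CD49a- NK cells against MFL NK cells (0.71, adjusted p = 0.7826) or in ILC1 against MFL NK cells (0.86, adjusted p = 0.5163). The ILC1 and MFL NK libraries did not overlap in Cd274, which was called there with voom quality weights (0.84, adjusted p = 0.007275) and with only those groups fitted (0.85, adjusted p = 0.04315). Those settings called 2645 and 1228 genes in all, against 416 in the main fit.

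Replicate 2 was the lowest in Cd274 in both LM populations. The summed level of the NF-kB and Toll-like receptor list was also lowest there, at 2466 CPM against 5629 and 11795 in LM CD49a+ NK cells and at 3448 against 10297 and 15134 in LM CD49a- NK cells, and 3202 to 3891 CPM in MFL NK cells. Other lists were lowest in replicate 2 of both LM populations too, among them the interferon-gamma response list (4556 CPM against 5168 and 6046, and 4666 against 5730 and 7403) and the mature dendritic cell list (24.2 against 42.4 and 50.9, and 5.54 against 19.2 and 20.1). None of the 13 tested genes of the NF-kB list was called in either LM population against MFL NK cells. The part of these levels in Cd274 was not tested.

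Icosl and Vsir were the 2 ligands called in ILC1 against MFL NK cells, where 1.38% of all genes were higher and 1.68% lower. Icosl was at 37.4, 60.02 and 61.5 CPM in ILC1 and at 6.04, 15.2 and 14.3 CPM in MFL NK libraries, with a log2 fold change of 2.16 (SE 0.54, adjusted p = 0.04059 by edgeR's quasi-likelihood test). Vsir was at 165, 243 and 234 CPM in ILC1 and at 102, 93.6 and 90.4 CPM in MFL NK libraries, with a log2 fold change of 1.16 (SE 0.28, adjusted p = 0.02915). The groups did not overlap in either gene, nor in 25.3% of all genes.

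Both ILC1 calls were lost in 5 of 6 fits that left out 1 library and were kept without ILC1 replicate 1. Without ILC1 replicate 2 or 3 or MFL NK replicate 1, 2 or 3 the log2 fold change was 1.84 to 2.38 for Icosl (adjusted p = 0.1187 to 0.2468) and 1.06 to 1.21 for Vsir (adjusted p = 0.1104 to 0.1651). The summed level of 7 T cell markers was 249 to 681 CPM in ILC1 and 4.98 to 14.7 CPM in MFL NK libraries, with 1 of 5 tested markers, Cd3g, called, while Cd3e stayed near 0. Epithelial markers were at 59.3 to 95.2 against 0.295 to 2.53 CPM (Cdh1 called higher, 1 of 2 tested), mature dendritic cell markers at 71.7 to 92.1 against 5.82 to 17.2 CPM (1 of 3 higher) and classical monocyte markers at 147 to 331 against 1159 to 1435 CPM (2 of 6 lower). The part of these transcripts in the ILC1 values was not tested.

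Icosl was at 25.5, 55.7 and 28.3 CPM in LM CD49a+ NK and at 24.6, 19.4 and 16.6 CPM in LM CD49a- NK libraries. Both sets lay above the MFL NK libraries, the second being a comparison in which 16.2% of all genes did not overlap, without a call (1.62, adjusted p = 0.3173, and 0.77, adjusted p = 0.8795, by edgeR's quasi-likelihood test), although DESeq2 called the first (1.66, adjusted p = 0.06137). Vsir was at 155, 110 and 79.6 CPM in LM CD49a+ NK and at 110, 69.5 and 85.0 CPM in LM CD49a- NK libraries, overlapping the MFL NK libraries. Between LM CD49a- NK and MFL NK cells, 0 of 7 members were called, beside 0.0662% of genes higher and 0.00736% lower, that is 10 genes, while 914 had an unadjusted p under 0.05. Without LM CD49a- NK replicate 3 this split turned round, to 20 higher and 90 lower.

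The other members were called in none of the 4 comparisons by edgeR's quasi-likelihood test. Lgals9 was at 84.3, 91.7 and 79.7 CPM in MFL NK, 71.8, 182 and 85.8 in LM CD49a- NK, 126, 101 and 50.5 in LM CD49a+ NK and 83.9, 91.6 and 90.1 in ILC1 libraries. Pvr was at 6.70, 6.63 and 5.43 CPM in MFL NK, 23.5, 9.75 and 11.3 in LM CD49a- NK, 6.10, 7.04 and 22.1 in LM CD49a+ NK and 12.6, 15.5 and 15.5 in ILC1 libraries. Both LM populations spread more widely than the MFL populations in these genes. Pdcd1lg2 stayed at or below 10.1 CPM in all 12 libraries. Neither Pvr nor Pdcd1lg2 overlapped between ILC1 and MFL NK cells, and voom with quality weights called both higher in ILC1 (Pvr 1.29, adjusted p = 0.01683, and Pdcd1lg2 2.63, adjusted p = 0.01849). That setting called 2645 of 13594 genes in this comparison, against 416 in the main fit.

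The receptors were read in the same lymphocyte libraries. In ILC1 against MFL NK cells, 2 of 10 tested receptor genes were higher, Cd226 at 294 ± 39.1 against 35.5 ± 10.6 CPM (3.05, adjusted p = 9.814e-05 by edgeR's quasi-likelihood test) and Cd96 at 148 ± 28.9 against 52.2 ± 5.02 CPM (1.51, adjusted p = 0.08389). Tigit, the inhibitory receptor for PVR and nectin-2, was at 193, 63.6 and 185 CPM in LM CD49a+ NK, 105, 55.8 and 122 in LM CD49a- NK, 89.6, 32.0 and 38.0 in MFL NK and 48.9, 51.5 and 45.1 in ILC1 libraries, and was not called in any comparison. The Cd226 call was kept without any 1 of the 6 libraries, and the Cd96 call was lost in each of those fits (adjusted p = 0.1155 to 0.3323) and at an adjusted p under 0.05. The Tigit values of the NK groups overlapped. These are RNA values, and by flow cytometry the paper reports higher surface TIGIT protein on LM CD49a+ than on LM CD49a- NK cells.

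Of the other receptors, Pdcd1 and Havcr2 were low, with group means up to 2.70 and 2.67 CPM. Selplg was the most abundant, with group means between 588 and 1029 CPM, and was not called. Among the other ligands, Tnfsf8 (4.42, adjusted p = 0.006987) and Fgl2 (1.53, adjusted p = 0.0001899) were higher in ILC1 than in MFL NK cells by edgeR's quasi-likelihood test, and Cd48 was lower in LM CD49a+ NK than in MFL NK cells (-1.73, adjusted p = 0.02075). The Tnfsf8 and Fgl2 calls were kept without any 1 library, and the Cd48 call was lost without MFL NK replicate 1 (-1.61, adjusted p = 0.1317).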

How the data were processed

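Bulk RNA-seq was analysed for 6 macrophage and 12 lymphocyte libraries, 3 per group. The authors deposited estimated counts per gene, whole numbers, 1 table per experiment. The submitters' processing notes name Trim Galore, Salmon (1.10.0 for macrophages, 1.5.0 for lymphocytes), R 4.3.1 and, for macrophages, DESeq2 1.40.2, on GRCm39. Salmon divides reads among transcripts by an estimated model, so genes that share sequence can trade counts. The macrophage table listed 13759 genes with a lowest total of 37 counts, a cut not given in the sources used here, and the one for lymphocytes listed 54309 genes, so genes at or near 0 counts could be read in the latter only.

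Symbols and positions came from GENCODE vM39, which matched 13726 and 53700 of the identifiers. Counts were filtered with filterByExpr by group, scaled with TMM and fitted with edgeR 4.0.16 (limma 3.58.1, R 4.3.3) in a quasi-likelihood model with group as the only term, in 1 fit per table. All genes entered the Benjamini-Hochberg adjustment, and a call was an adjusted p under 0.1. Standard errors are approximate, from each log2 fold change and its F statistic, and intervals are at 95%. The biological coefficient of variation was 0.162 for macrophages and 0.891 for lymphocytes, and totals of 21278959 to 32267015 and 8795721 to 14386834 counts set the precision. Single values were compared with exact permutation tests over libraries. The fitting code was tested on simulated data.

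Named genes were the 9 members in every library, genes of the ligand and receptor lists with a mean of at least 5 CPM, the 3 most abundant genes and the widest called rise and fall of other lists, and the 3 nearest patterns of each called member. Ly6c2, Flt3 and some other genes were named outside this rule, and not every gene that it selects is printed. Members and lists were chosen with earlier results of these data known, and no set test was run. Alternatives were DESeq2 1.42.0, voom with quality weights, other scalings and filters, a threshold of 0.05, a replicate block, leaving out each library and, chosen after seeing the data, fitting only the 2 lymphocyte groups compared and following further single genes of the lymphocytes through all alternatives. Figures were drawn with Python 3.11.15 and matplotlib 3.10.9.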

Additional observations from a re-analysis of the deposited data

How the results depend on the processing

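Of 929 alternative values, 851 kept their side of the threshold or stayed within range, 22 lost a call, 9 gained one and 47 moved. No called value changed sign, and 11 values without a call did or fell to 0, 10 of them without 1 library, among them Vsir in LM CD49a+ against MFL NK cells (from 0.27 to -0.02) and in LM CD49a- against MFL NK cells (from -0.12 to 0.03). The 6 macrophage member calls were kept in every alternative, beside 6470 to 7981 genes called over other settings (7555 as reported) and 6550 to 7234 without 1 library. Members called ran from 6 to 7, and upper quartile scaling moved the median of all genes from 0.0136 to 0.104 and the share of calls that were higher from 50.6% to 59.9%. The receptor list had 5 genes lower with at least 1 CPM in 3 libraries.

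In lymphocytes the counts moved more. For LM CD49a+ against LM CD49a- NK cells (19 genes, 0 members) genes called were 8 at an adjusted p under 0.05, 543 by DESeq2 with 1 member, 0 by voom, 200 with no filter and 3 with only those groups fitted. For LM CD49a+ against MFL NK cells (88 genes, 1 member) they were 57, 365 with 2 members, 307 and 371 for the first 4 of these. For LM CD49a- against MFL NK cells (10 genes) they were 4, 161, 104, 158 and 3. For ILC1 against MFL NK cells (416 genes, 2 members) they were 667 by DESeq2, 2645 by voom with 5 members, and 1228 with only those groups fitted. Without 1 library the 4 counts of genes ran from 5 to 267, 26 to 162, 1 to 110 and 268 to 299, and members from 0 to 0, 0 to 1, 0 to 0 and 0 to 2. The cause of these differences was not tested.

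With the replicate number as a block, 7512 genes and 6 members were called in macrophages, and 24, 101, 15 and 445 genes in lymphocytes, with no member call changed. Same-numbered macrophage libraries correlated at 0.144, -0.021 and 0.0142 in their deviations and same-numbered lymphocyte libraries at -0.0405 to 0.128, with no comparison over 0.1 in every pair. Weak correlations over all genes cannot exclude a shared sort or pool. Replicate 2 was the lowest in Cd274 in both LM populations, so whether same-numbered libraries belong together stays unknown. The lymphocytes came from 3 separate sorts, and no label ties a number to a sort.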

Other observations

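Proliferation genes, which no comparison of the ligands used, were higher in F4/80high than in F4/80low cells in 10 of 10 cases, with a median log2 fold change of 1.38 and summed levels of 1555 to 1863 against 678 to 795 CPM. Mki67, a marker of cycling cells, was at 452 ± 3.85 against 167 ± 24.1 CPM (SD, n = 3, log2 fold change 1.44), Top2a, encoding a topoisomerase of dividing cells, was at 349 ± 43.3 against 146 ± 20 CPM (1.26), and Pcna (0.75) and Cdk1 (1.90, the widest of the list) were also called. None of the 10 was lower.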
